A study of Mus musculus with 16 samples.

Results

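The genes described here are Susd3, Drd4, Sult1e1, Cited1, Eppin and Acan, which had far higher RNA levels in male than in female mouse adrenal glands. They are 6 of 54838 genes counted, and all 6 passed the filter on low counts that left 18214 genes for testing. The genes were chosen by their levels in male and female libraries of these same data, so the size of the male-to-female difference is given as a description, without a test. The difference between genotypes within a sex was not itself the basis of the choice, and it is tested. Libraries of both genotypes enter the choice as well as the test in their own sex. The choice favours genes that are high in males or low in females of either genotype, so these tests are not independent of it.

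Whole adrenal glands were taken at an age of 4 weeks from mice of mixed genetic background, and each of the 16 libraries is 1 mouse. Controls of each sex (4 females, 4 males) are set beside mice with a gain of function of Rspo1 (Rspo1 GOF, again 4 females and 4 males). R-spondin 1, the product of Rspo1, is a secreted protein that potentiates WNT signals. The labels do not say which promoter or cell type drives Rspo1 in the GOF mice, whether the GOF line is 1 line or several, or whether controls carry any allele of it. The spread between libraries is spread between single mice.

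The adrenal gland holds a steroid-producing cortex under a thin capsule and a catecholamine-producing medulla inside it. In mice the cortex differs between the sexes from puberty on, in zonation, in growth and in the steroids it makes and clears. The 6 genes belong to no common pathway. Drd4 and Susd3 encode membrane proteins, Sult1e1 an enzyme of steroid conjugation, Cited1 a transcriptional coregulator, and Eppin and Acan secreted proteins of the protease-inhibitor and proteoglycan kinds. They lie on 5 chromosomes. The pair on chromosome 7, Acan and Drd4, is 62.2 Mb apart.

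Library totals ran from 31275146 to 43003968 counts, and levels are given as counts per 1000000 counts (CPM) after scaling. Rspo1 itself was at 353 to 532 CPM in female GOF against 3.19 to 40.5 in female controls, and at 534 to 971 in male GOF against 19.4 to 48.2 in male controls. Summed cortex markers (8 genes, all detected) lay between 33095 and 53101 CPM in every library. Some libraries stood apart. Kidney tubule markers (8 genes) summed to 1064 CPM in female control 1 and 179.9 in female control 3, against at most 2.72 in the others, and liver markers (10 genes) to 9185 CPM in male control 2. Calls and folds stated below for relatives and neighbours that rest on one of these libraries are also given without it.

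All 8 male libraries were above all 8 female libraries for 6 of the 6 genes. Over all tested genes this held for 2.39%. Male controls were all above female controls for 6 of 6, against 14.4% of all genes, and male GOF all above female GOF for 6 of 6, against 13.4%. These separations restate how the genes were chosen. Within a sex, the genotype test called 2 of the 6 in males, with Drd4 higher and Sult1e1 lower in GOF, where 36.9% of all genes were called. In females it called 2 of 6, Susd3 and Drd4, both lower in GOF, where 39.6% of all genes were called. Drd4, Eppin and Sult1e1 passed the filter only through the male libraries, and none of these 3 is kept when the female libraries are fitted alone. In that fit the 2 calls were Susd3 and Cited1. The female call of Drd4 comes from the joint fit alone and supports nothing here. The difference between the 2 genotype effects (the interaction of sex and genotype) was called for 2 of 6, Drd4 and Susd3, where 4.21% of all genes were called. It is built from the male and female levels that chose the genes, so nothing is read from that count, and the differences below are a description without a test. The Susd3 call was lost in 14 of 26 alternatives, and Drd4 has 9 counts in female GOF. GOF and control libraries did not overlap for 2 of 6 genes in males, where 33.1% of all genes did not, and for 3 of 6 in females (Susd3, Cited1 and Drd4), where 37.8% did not. The median log2 fold change of the 6 genes was 0.70 in males, beside 0.01 over all genes. It covers values from -3.05 to 2.71, and male GOF levels entered the choice of the genes, so nothing is read from it. No median is given for females, where 3 of the 6 passed the filter only through the male libraries.

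**Figure D1:**
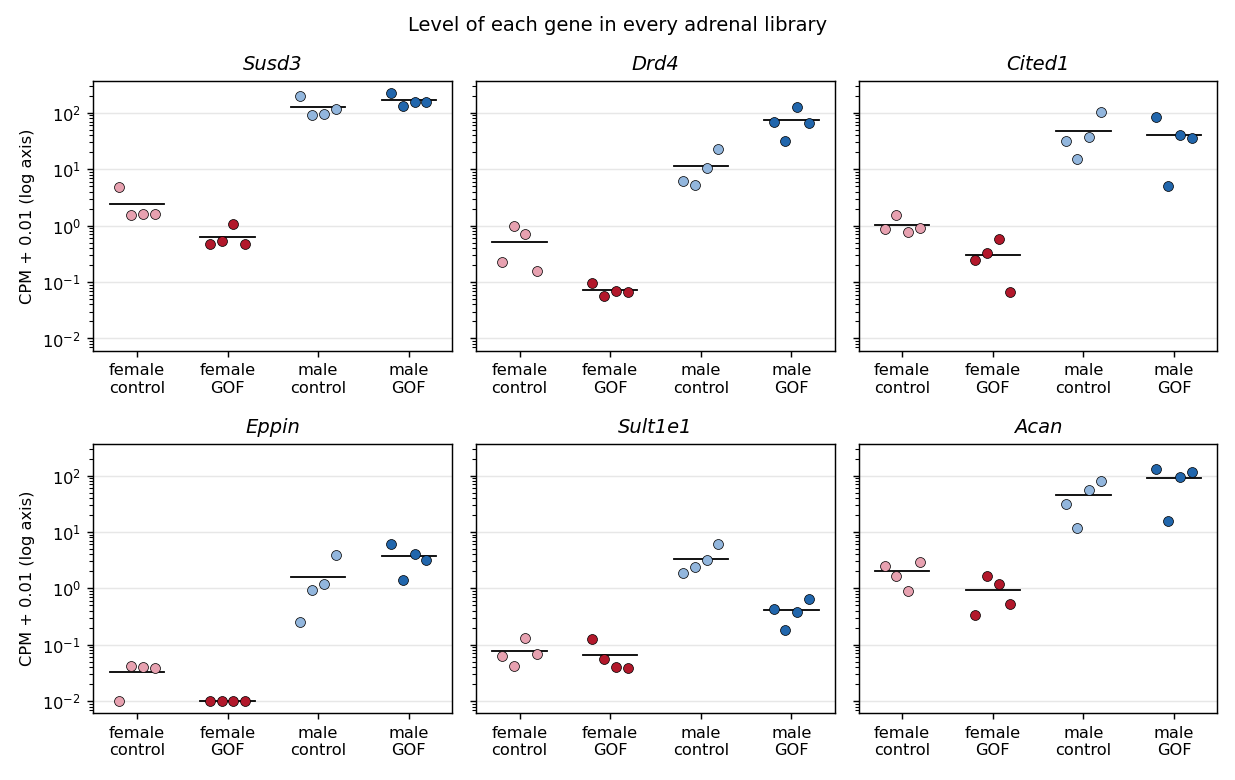
Level of each gene in the 16 adrenal libraries, as CPM plus 0.01 on a log axis; each point is 1 mouse and each bar the mean of 4. The 8 male points are above the 8 female points in all 6 panels, Drd4 rises from male control to male GOF, and Sult1e1 falls.

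Drd4 encodes the D4 dopamine receptor, a G protein-coupled receptor that lowers cyclic AMP. It is annotated on chromosome 7, 141292006 to 141296464, plus strand (ENSMUSG00000025496, protein-coding, GRCm38). Its promoter is shown beside that of Sult1e1 because these are the 2 genes whose levels changed with genotype in males, in opposite directions. Both are RefSeq windows on GRCm38.p6, read on the strand of the gene up to the first annotated exon, with CG dinucleotides in capitals. They are chr7:141291768-141292005 (plus strand, 238 bases) and chr5:87591612-87591861 (minus strand, 250 bases).
Drd4: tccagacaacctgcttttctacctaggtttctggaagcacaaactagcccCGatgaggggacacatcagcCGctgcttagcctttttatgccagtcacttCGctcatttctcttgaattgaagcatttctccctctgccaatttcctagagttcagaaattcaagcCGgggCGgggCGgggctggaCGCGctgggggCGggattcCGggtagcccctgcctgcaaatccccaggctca
Sult1e1: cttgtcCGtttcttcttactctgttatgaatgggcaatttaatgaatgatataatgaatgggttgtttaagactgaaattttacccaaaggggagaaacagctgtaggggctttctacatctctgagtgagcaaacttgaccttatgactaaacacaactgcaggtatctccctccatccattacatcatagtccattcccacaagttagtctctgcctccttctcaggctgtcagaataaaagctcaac
The Drd4 stretch holds 10 CG dinucleotides and the Sult1e1 stretch holds 1. Over 32851 RefSeq promoter windows of 250 bases the median was 6.

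In male controls Drd4 was at 6.15, 5.26, 10.4 and 23.1 CPM, and in male GOF at 69.7, 31.97, 126 and 65.6 CPM. Every GOF male was above every control male. The means were 11.2 ± 8.25 and 73.4 ± 39.2 CPM (SD, n = 4 each), a log2 difference of 2.71 ± 0.52 (SE), and edgeR's adjusted p was 0.00107. The call held in all 27 alternative analyses that kept the gene. Male control 4 was the highest control, and without it the control mean was 7.27 ± 2.75 CPM (n = 3). The numbers in the titles of the male samples fall in a lower range (3 controls, 2 GOF) and a higher one (1 control, 2 GOF), whose meaning the labels do not give. The lower range also holds 2 females, the higher holds males only, and the other females lie in ranges with no male. Within both male ranges, GOF was above control without overlap, with log2 ratios of 2.81 and 2.05.

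In females Drd4 was near the limit of detection. Female controls had 8, 30, 23 and 5 counts, and female GOF had 3, 2, 2 and 2. The groups did not overlap, but the GOF level rests on 9 counts in all. The control-to-GOF ratio of pooled counts was 7.97 (exact 95% interval 3.95 to 18.2, counting error only). No test is given for this ratio, because the gene passed the filter only through the male libraries.

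By pooled counts male GOF was 1225-fold above female GOF (interval 644.9 to 2679, counting error only) and male control 23.6-fold above female control (18.4 to 30.6), which describes the choice of the gene. Medulla markers moved with genotype in both sexes. Their sum over 8 genes fell from 7647 to 11556 CPM in male controls to 395 to 898 in male GOF, and from 4776 to 11005 to 199 to 777 in females. Drd4 in males went the other way, and the part of the medulla in its level in females was not tested. In whole glands, fewer cells of a type and less RNA per cell cannot be told apart.

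Among the other dopamine receptors, only Drd2 passed the filter. Drd2, the receptor known for restraining dopamine and hormone release, fell in both sexes, with log2 fold changes of -4.80 in GOF males (adjusted p = 0.000638) and -3.39 in GOF females (adjusted p = 0.00545). Without male control 2, at 20.5 CPM, the change in males was -3.66 (adjusted p = 0.00107), and the male control mean went from 7.76 to 3.51 CPM. Without female GOF 2 the change in females was -4.37 (adjusted p = 0.00338). Drd1 and Drd3 had at most 11 and 4 counts in any library, and Drd5 had 0. Of the genes flanking Drd4, the transcription factor gene Deaf1, 716 bases beyond its end, had no called difference between male and female controls (log2 -0.06, adjusted p = 0.723). Sct, the secretin gene on the other side, had a log2 fold change of 1.59 in GOF males (adjusted p = 0.0284), from 0.172 to 0.529 CPM. That call was lost without male control 2 (adjusted p = 0.0627), and likewise without male control 1, male control 3, male GOF 2 or male GOF 3 (0.0560 to 0.116).

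Susd3 encodes a small membrane protein with a sushi domain, known as a target of estrogen receptor signalling in breast cancer cells. It lies on chromosome 13, 49230690 to 49248706, minus strand (ENSMUSG00000021384). It was the most abundant of the 6, with 3103 to 8385 counts per male library. Male controls were at 202, 90.7, 96.6 and 116 CPM and male GOF at 222, 131, 155 and 157. These ranges overlap, and the log2 fold change of 0.40 ± 0.33 was not called (adjusted p = 0.368).

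Female controls were at 4.77, 1.55, 1.60 and 1.58 CPM and female GOF at 0.467, 0.526, 1.04 and 0.457. Every GOF female was below every control female. Susd3 fell by 1.95 ± 0.47 on the log2 scale in GOF females (adjusted p = 0.00479), and this call held in all 27 alternatives. The highest control is the library with the most kidney transcripts. Without it the log2 fold change was -1.35 (adjusted p = 0.0179), and the remaining 3 controls had a mean of 1.58 ± 0.0263 CPM. The fall thus took place in the sex where the gene was already low.

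The fitted difference between the genotype effects on Susd3 was 2.35 ± 0.58 on the log2 scale (male minus female), and 1.74 without female control 1. By pooled counts males were 51.1-fold above females in controls and 272-fold in GOF. On the log2 scale the fitted difference in controls was 5.71, and 6.32 without female control 1.

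The motifs searched were 5, taken on both strands in the 250 bases before each start: CAAGGTCA (the extended half-site of SF-1, the steroidogenic factor of the cortex), AGAACA (a steroid receptor half-site), TGACG (a cyclic AMP response half-site), TTCNNNGAA (STAT) and TATAAA. The 6 windows held 2 matches. Susd3 had CAAGGTCA, beginning 156 bases before its RefSeq start, and 1.33% of the 32851 windows hold this motif on either strand. Cited1 had TATAAA, beginning 13 bases before its start, as 12.4% of windows do. The Susd3 match lies within an exon of another annotated transcript of the gene. It is shown in capitals with 10 bases on each side, at chr13:49248433-49248460, minus strand.
Susd3: tgtcactctcCAAGGTCAcctgcctggc
No AGAACA (16.1% of windows), TGACG (17.8%) or TTCNNNGAA (7.02%) was in the 6 windows. The 2 matches overlap no other motif, and a match is a description of these letters only.

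The genes beside Susd3 did not share its pattern in full. Fgd3 lies 12.8 kb away. It did not differ between male and female controls (log2 -0.09, adjusted p = 0.675), but it rose in GOF males by 1.26 on the log2 scale (adjusted p = 5.96e-06), from 9.42 ± 1.16 to 22.5 ± 0.905 CPM. The Fgd3 interaction was 1.44 (adjusted p = 0.000945). Card19, on the other side, was higher in males by 0.60 in controls (adjusted p = 0.00237) and by 0.86 in GOF (adjusted p = 0.000111). Of 5 other sushi domain genes, 3 were called lower in GOF in each sex, where 36.9% of all genes were called in males and 39.6% in females. In females Susd2 was 1 of the 3, and it was not called without female control 1 (adjusted p = 0.147). The call was also lost without any of several other single libraries (adjusted p from 0.0520 to 0.119). The log2 fold changes in males and females were -1.53 and -1.44 for Susd1 and -1.60 and -1.65 for Susd4.

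Sult1e1 encodes estrogen sulfotransferase, which inactivates estrogens by adding a sulfate group and is known as an androgen-dependent enzyme of Leydig cells. It lies on chromosome 5, 87575969 to 87591594, minus strand (ENSMUSG00000029272). Male controls were at 1.84, 2.43, 3.12 and 6.003 CPM (60 to 221 counts) and male GOF at 0.424, 0.171, 0.375 and 0.634 CPM (6 to 21 counts). All 4 GOF males were below all 4 control males. Sult1e1 fell by 3.05 ± 0.47 on the log2 scale in GOF males (adjusted p = 0.000136), a call that held in all 27 alternatives. Within the lower and the higher title range the log2 ratios were -3.05 and -3.57, without overlap.

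Females had 1 to 4 counts per library in both genotypes. Female controls were at 0.0538, 0.0322, 0.123 and 0.0587 CPM, and female GOF at 0.117, 0.0458, 0.0298 and 0.0286. The ranges overlap. From 9 and 8 counts in all, the control-to-GOF ratio in females was 1.22 (exact 95% interval 0.419 to 3.64, counting error only). By pooled counts males stood 51.2-fold above females in controls (interval 26.7 to 113, counting error only) and 7.28-fold in GOF (3.46 to 17.7), the smallest of the 6 ratios in GOF. With title range as a covariate the fitted log2 differences moved from 5.57 to 4.79 in controls and from 2.79 to 1.71 in GOF.

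Several marker lists moved with Sult1e1 in males. Adipocyte markers (7 of 7 detected) summed to 2423 to 4979 CPM in male controls and 383 to 490 in male GOF, and capsule and stroma markers to 947 to 2550 and 381 to 450. Liver markers summed to 9185 CPM in male control 2, to 182 to 769 in the other male controls and to 8.15 to 83.2 in male GOF. Outside male control 2, nearly all of the male control sum was Cyp2e1. Medulla markers, given above with Drd4, summed to 7647 to 11556 CPM in male controls and 395 to 898 in male GOF. Leydig cell markers summed to 112 to 273 and 6.49 to 95.3 CPM, nearly all of it Hsd3b6, while Insl3, which defines these cells, reached at most 1.19 CPM and Cyp17a1 1.48. In females the adipocyte sum was 1976 to 2471 CPM in controls and 474 to 989 in GOF. The part of these cells in the fall of Sult1e1 was not tested.

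Of 10 other sulfotransferases 5 were tested. In GOF 3 of the 5 fell in each sex, where 36.9% of all genes were called in males and 39.6% in females, and Sult2b1 and Sult6b1 were not called. The log2 fold changes in males and females were -2.11 and -1.79 for Sult5a1, -1.16 and -1.06 for Sult1a1, the phenol sulfotransferase, and -5.38 and -3.16 for the brain-type Sult4a1. Sult5a1 and Sult1a1 were also higher in male than female controls, by 1.14 and 0.94 on the log2 scale. Sult4a1 was at 106 CPM in male control 2, the library with liver transcripts, and at 34.2 ± 48.2 in all 4 male controls. Without that library the mean was 10.1 ± 2.11 CPM, the log2 fold change in GOF males was -3.63 (adjusted p = 2.49e-05), and the difference between male and female controls went from 2.32 (adjusted p = 0.035) to 0.56 (adjusted p = 0.370). That difference was also not called with any 1 female control left out (adjusted p from 0.0507 to 0.101). Papss2, which makes the sulfate donor, also fell, with log2 fold changes of -1.72 in males and -1.59 in females. Female control 1, the library with kidney transcripts, was at 53.8 CPM of Papss2 and the other 3 female controls at 15.3 ± 2.29. Without it the change in females was -0.88 (adjusted p = 0.0268). The second donor enzyme gene, Papss1, fell by 0.354 in males (adjusted p = 0.00959) and was not called in females (0.10, adjusted p = 0.414). That difference between the sexes was not called (adjusted p = 0.0714). The nearest tested genes, Ugt2b34 and Jchain, lie 669 and 928 kb from Sult1e1, and neither was called between male and female controls (adjusted p = 0.672 and 0.298).

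Cited1 encodes a transcriptional coregulator that binds the acetyltransferases CBP and p300. It is the only X-linked gene of the 6 (chromosome X, 102247381 to 102252181, minus strand, ENSMUSG00000051159). Male controls were at 31.4, 15.4, 37.9 and 104 CPM and male GOF at 82.9, 5.02, 40.9 and 35.1. The ranges overlap, and the fold change of -0.21 ± 0.65 (log2, adjusted p = 0.834) turned positive without male control 4 (0.54) or male GOF 2 (0.15). The highest male GOF library had 16.5 times the level of the lowest, the widest spread within a male GOF group among the 6. Within the title ranges the log2 ratio was 0.64 in the lower, with overlap, and -1.46 in the higher, without. Without male control 4 the control mean fell from 47.2 ± 39.2 to 28.2 ± 11.6 CPM.

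Female controls had 0.861, 1.52, 0.769 and 0.909 CPM of Cited1 and female GOF 0.234, 0.320, 0.567 and 0.0571. Every GOF female was below every control female, yet the log2 difference of -1.77 ± 0.93 was not called (adjusted p = 0.149). It was called when only the 2 female groups were fitted (adjusted p = 0.0225).

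The close relatives Cited2 and Cited4 leaned to the other sex. Cited4 was at 41.0 ± 6.61 CPM in female controls and 4.19 ± 1.37 in male controls, a log2 difference of -3.29 (adjusted p = 1.27e-05), and Cited2 at 174 and 75.3 CPM, a difference of -1.21 (adjusted p = 0.000442). In GOF females Cited4 fell by 1.74 (adjusted p = 0.000639), and its interaction of 2.46 (adjusted p = 0.0073) was the only one called among 38 tested relatives of the 6 genes. In GOF the Cited4 difference between the sexes was -0.83 (adjusted p = 0.0609). The partners Crebbp and Ep300 had no called difference between the sexes in the fit of all 16 libraries. For Ep300 the log2 difference between male and female controls was 0.269 (adjusted p = 0.0751). Without female control 1 and male control 2 it was 0.389 and called higher in males (adjusted p = 0.0280). On the chromosome, neither neighbour of Cited1, Rps4x nor Hdac8, differed between male and female controls by the test (adjusted p = 0.0844 and 0.796).

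Eppin encodes a protease inhibitor with a WAP and a Kunitz domain, known from the epididymis, testis and sperm surface. It lies on chromosome 2, 164588343 to 164593594, minus strand (ENSMUSG00000017733). In females it was at the floor of counting. Female controls had 0, 1, 1 and 1 counts, and female GOF had 0 in all 4 libraries, so no genotype fold is given there. Male controls had 8, 31, 39 and 144 counts and male GOF 235, 48, 162 and 105. Male controls stood 73.4-fold above female controls (interval 24.8 to 358, counting error only, from 3 female counts), and male GOF at least 184-fold above female GOF, taking 3 counts over the group as the floor. Male control 4 holds 144 of the 222 control counts, and without it the control mean fell from 1.57 to 0.785 CPM. With title range as a covariate the fitted log2 male-to-female difference of Eppin moved from 5.92 to 7.47 in controls and from 10.03 to 11.62 in GOF.

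Eppin was at 1.57 ± 1.61 CPM in male controls and 3.70 ± 2.02 in male GOF, and male control 4 lay within the GOF range. The log2 fold change of 1.24 ± 0.67 was not called (adjusted p = 0.172). Without male control 4 it was 2.23 and called (adjusted p = 0.0165), with a control mean of 0.785 ± 0.491 CPM. Both limma fits on FPKM with a filter also called it (adjusted p = 0.0291 and 0.0356). Male control 4 is the only control of the higher title range. Within that range the log2 ratio was -0.12, and within the lower it was 2.27 with no overlap.

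Both genes that flank Eppin were also higher in males, and neither was used to choose the 6. Wfdc6a and Wfdc8 encode proteins with WAP domains and lie 2.90 and 2.86 kb from Eppin on either side. Wfdc6a was at 6.80 ± 3.46 CPM in male and 1.08 ± 0.167 in female controls, a log2 difference of 2.66 (adjusted p = 0.00036), and in GOF the difference was 3.94 (adjusted p = 1.63e-05). Wfdc8 was at 3.47 ± 1.49 and 0.230 ± 0.136 CPM, a difference of 3.88 (adjusted p = 3.33e-05), and in GOF 3.56 (adjusted p = 3.63e-05). Neither was called between genotypes in either sex, but without female control 1 and male control 2 Wfdc8 was called higher in GOF females (1.31, adjusted p = 0.0339) and its difference between controls was 4.56.

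Of 18 relatives of Eppin in this inhibitor group 7 were tested. Wfdc6a and Wfdc8 were the 2 called between the sexes in controls, where 23.4% of all genes were called, and 29.6% in GOF. In GOF 3 were higher in males, the same 2 and Wfdc1 (0.62, adjusted p = 0.0284, but 0.0803 without female GOF 1, 0.0693 without female GOF 4 and 0.0854 without male GOF 3), and Spint2 was lower (-1.02, adjusted p = 0.00254). Between genotypes 3 of the 7 fell in GOF in each sex, namely Wfdc1, Spint1 and Spint2. Over all genes 36.9% were called in males and 39.6% in females. Spint2 in females was not called without female control 1 (-0.51, adjusted p = 0.0836) or without female GOF 1 (adjusted p = 0.0597). Spint1, an inhibitor of membrane serine proteases, had log2 fold changes of -2.23 in males and -3.05 in females, and -2.46 in females without female control 1, which was at 12.01 CPM against a mean of 3.96 in the other 3. No annotated exon of Eppin overlaps another gene, but reads of Wfdc6a and its relative Wfdc6b may be hard to separate. Epididymis markers (8 genes) summed to at most 3.23 CPM in any library and testis germ cell markers (7 genes) to at most 3.40, with Tnp1 at 0 counts in all 16.

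Acan encodes aggrecan, the large chondroitin sulfate proteoglycan of cartilage, which also occurs in other extracellular matrix. It lies on chromosome 7, 79053483 to 79115099, plus strand (ENSMUSG00000030607). Male controls were at 31.7, 11.5, 55.5 and 78.7 CPM and male GOF at 132, 15.8, 94.0 and 114. Of the GOF males 3 were above all controls, and the other was below 3 of them. The log2 fold change of 0.999 ± 0.62 was not called (adjusted p = 0.220).

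Female controls were at 2.504, 1.68, 0.892 and 2.90 CPM of Acan and female GOF at 0.321, 1.65, 1.19 and 0.514. The ranges overlap, and the log2 change of -1.09 ± 0.77 was not called (adjusted p = 0.276). By pooled counts males stood 22.2-fold above females in controls and 92.8-fold in GOF. Of 8 cartilage markers 2 reached 1 CPM in the median library, Col9a2 (at most 8.21 CPM) and Col11a2 (at most 4.97 CPM). Col2a1, the main cartilage collagen, reached at most 0.234 CPM, and Matn1 had 0 counts in all libraries. In females the summed list lay at 3.94 to 7.83 CPM (controls) and 0.776 to 2.196 CPM (GOF), and in males at 7.47 to 16.1 and 2.83 to 4.28 CPM. Its part in the level of Acan was not tested.

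Among other hyaluronan-binding proteoglycans and link proteins, 6 of 7 were tested. In GOF males 4 fell and 2 rose, where 36.9% of all genes were called. In GOF females 4 fell and 1 rose, where 39.6% of all genes were called. The log2 fold changes in males and females were -4.26 and -3.12 for Ncan, the neurocan gene, -1.75 and -1.44 for Vcan, the versican gene, and -0.89 and -0.48 for Bcan. Without female control 1 and male control 2 the calls of Bcan (adjusted p = 0.126) and Hapln4 (0.0540) in females were lost, as they were without several other single libraries. The Ncan changes were -4.99 in males without male GOF 4 and -3.79 in females without female GOF 2. Hapln1, which encodes the protein that locks aggrecan onto hyaluronan, rose by 1.40 in males (adjusted p = 0.00251) and by 1.503 in females (adjusted p = 0.00155). None of the 6 was called between male and female controls, where 23.4% of all genes were called.

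Hapln3 is the gene next to Acan, with 3 bases between their annotated ends, so reads at that boundary may be assigned to either. Its log2 fold change in GOF males was 0.683 (adjusted p = 0.0208), to 5.91 CPM, and was not called without male control 1, male control 2 or male GOF 1 (adjusted p = 0.0581, 0.0614 and 0.0676). Hapln3 was higher in males than females in GOF (0.957, adjusted p = 0.00368) but not in controls (0.07, adjusted p = 0.838). The difference between these was not called (interaction 0.884, adjusted p = 0.114). Of 5 aggrecanases, the proteases that cut aggrecan, Adamts15 fell in GOF males by 1.24 (adjusted p = 0.000523), and no other change between genotypes was called in either sex. Isg20, on the other side of Acan, was higher in males by 0.98 in controls (adjusted p = 0.00495) and 1.33 in GOF (adjusted p = 0.000415).

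**Figure D2:**
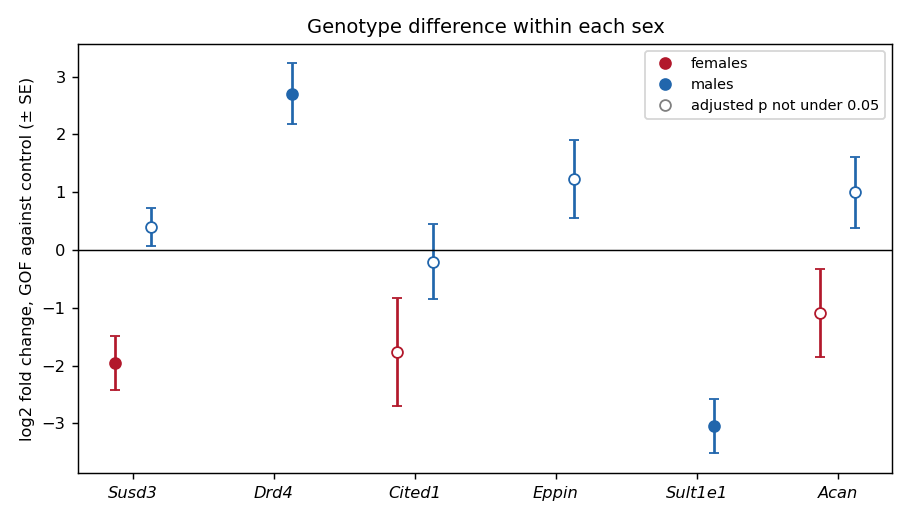
Log2 fold change of GOF against control in males (blue) and females (red), with SE over 4 against 4 mice; filled points have an adjusted p under 0.05. Drd4, Eppin and Sult1e1 in females are left out because they passed the filter only through the male libraries. Drd4 is called upward in males (2.71), Susd3 downward in females (-1.95) and Sult1e1 downward in males (-3.05).

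The order of the 4 groups was the same for 4 of the 6 genes: male GOF, male control, female control, female GOF, by mean level. That the male groups come first restates the choice of the genes. The share of all genes with this order was not computed, so nothing is read from the count. Among the 4 genes, male GOF and male control overlapped for Susd3, Eppin and Acan and were apart for Drd4. For Cited1 and Sult1e1 male control was highest, with overlap for Cited1 and none for Sult1e1. Of the 3 genes kept in the fit of females alone, Susd3 and Cited1 were lower in every GOF female than in every control female, and Acan overlapped. The order of the female means of Drd4, Eppin and Sult1e1 rests on 66 against 9, 3 against 0 and 9 against 8 counts.

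Levels can be compared between genes on the deposited FPKM scale, which divides by gene length. In male controls the mean FPKM was 136 for Susd3, 67.2 for Cited1, 8.79 for Acan, 6.04 for Drd4, 2.65 for Sult1e1 and 1.999 for Eppin. In male GOF it was 194 for Susd3, 62.1 for Cited1, 42.6 for Drd4, 18.9 for Acan, 5.03 for Eppin and 0.342 for Sult1e1. Drd4 thus moved ahead of Acan and Eppin ahead of Sult1e1.

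Within the male groups, several of the genes were high or low in the same mice. Male GOF 2 was the lowest of its group for 6 of 6 genes. Male control 4 was the highest of its group for 5 of 6, all but Susd3, and male control 2, the library with liver transcripts, the lowest for 4. Male GOF 1 was the highest of its group for 4 of 6, Susd3 among them. The share of all genes highest or lowest in each library was not computed. These counts are therefore not read as particular to the 6 genes. Male GOF 2 had the highest cortex marker sum of the GOF males, at 48013 CPM against 35076 to 36916 in the others, and male control 4 had 33261 CPM against 33095 to 52392 in the other controls. The part of this in the members' levels was not tested.

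**Figure D3:**
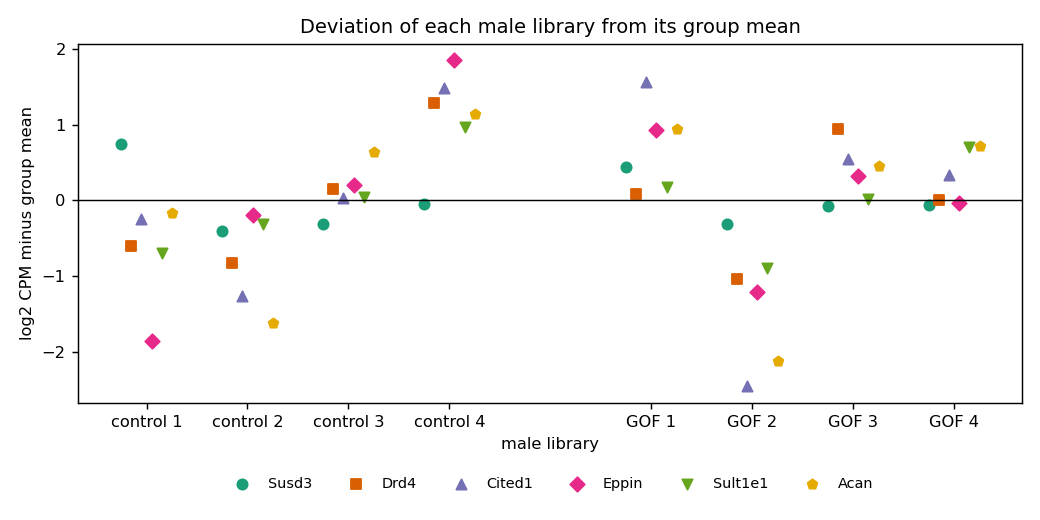
Log2 CPM of each gene in the 8 male libraries minus the mean of its own group (control or GOF). All 6 symbols lie below 0 in GOF 2, and all but that of Susd3 lie well above 0 in control 4.

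Over the 8 male libraries, correlations of these deviations were computed for the 15 pairs of genes, with exact p-values from the 576 permutations within groups and adjustment over the 15. Cited1 and Acan were closest, with Pearson r = 0.949 (permutation p = 0.00347, adjusted p = 0.0521) and Spearman rho = 0.905 (adjusted permutation p = 0.0434). Without the 2 libraries farthest from the median in Cited1, r was 0.820. No Pearson correlation passed the adjusted threshold. By rank, Sult1e1 with Acan (rho = 0.952) and Cited1 with Eppin (rho = 0.881) also did, each with an adjusted exact permutation p of 0.0434. Without the 2 farthest libraries Pearson's r went from 0.794 to 0.601 for Sult1e1 with Acan and from 0.734 to 0.855 for Cited1 with Eppin. The 5 pairs with Susd3 had r between -0.21 and 0.44, and between 0.61 and 0.81 without the 2 farthest libraries, so these values rest on those libraries. The libraries share their scaling and the mixed genetic background.

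The genes most like each of the 6 were sought among 13529 genes by Pearson r of log2 CPM over the 16 libraries, a description in which the sex difference weighs most. Tmem52 was closest to Susd3 (r = 0.985) and to Drd4 (0.957), and Kcnd3, a potassium channel gene, followed for Drd4 (0.957). Kcnk1, a potassium leak channel gene, was closest to Cited1 (0.977), the neighbour Wfdc6a to Eppin (0.985), and the metalloprotease gene Adam15 to Acan (0.973). Rnf24 was closest to Sult1e1 (0.958).

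With group means removed, other genes came first. Acvr1, a receptor for bone morphogenetic proteins and activins, followed Acan (r = 0.948 over 16 libraries). It rose in GOF by 1.40 in males (adjusted p = 0.000302) and 1.13 in females (adjusted p = 0.00161) and was higher in male than female controls by 1.73 (adjusted p = 0.000151). Acvrl1, a related receptor of endothelium, followed Eppin (0.919), and Hspbap1 and Dirc2, both on chromosome 16, followed Cited1 (0.918 and 0.903). Neu1, the lysosomal sialidase gene, followed Susd3 (0.888, or 0.808 without female control 1 and male control 2), Ppt1 followed Drd4 (0.872) and Rtn4rl2 followed Sult1e1 (0.899).

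Taking the lists of relatives as a whole, 59 genes were listed and 38 tested. In GOF males 2 were higher and 18 lower, or 52.6% called beside 36.9% of all genes, and in GOF females 3 were higher and 16 lower, or 50.0% beside 39.6%. Summed markers of the medulla, of adipocytes and of capsule and stroma fell between the same male groups, as given above, and their part in these calls was not tested. Between male and female controls 6 were higher and 2 lower in males, or 21.1% beside 23.4% of all genes. The relatives were therefore called between the sexes about as often as other genes, with Wfdc8 (3.88) and Wfdc6a (2.66) among the higher ones and Cited4 (-3.29) and Cited2 (-1.21) the 2 lower ones. Without female control 1 and male control 2 the called relatives numbered 19 in GOF males, 17 in GOF females and 8 between controls. Sult4a1 was no longer among those called between controls, and Ep300 was newly among them.

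**Figure D4:**
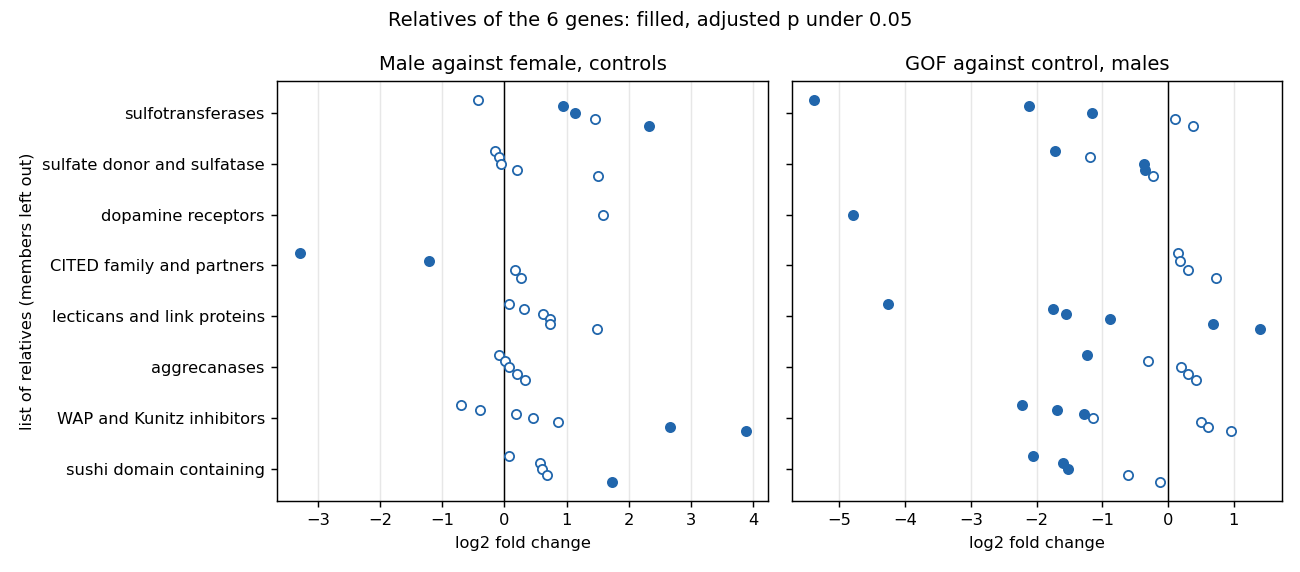
Log2 fold change of 38 relatives, by list and without the 6 genes themselves: left, males against females in controls; right, GOF against control in males. Filled points have an adjusted p under 0.05; Wfdc8 and Wfdc6a lie at 3.88 and 2.66 on the left, and 18 filled points lie below 0 on the right against 2 above.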

How the data were processed

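RNA of 16 whole adrenal glands was sequenced as paired reads of NEBNext Ultra libraries, per the labels' protocols. The authors deposited whole-number counts per Ensembl gene and FPKM values. Bowtie2 2.2.3, TopHat2 2.0.12, HTSeq 0.6.1 and DESeq 1.18.0 are named, without roles, per the submitters' processing notes; build and strandness are not given in the sources used here. The length implied by deposited counts and FPKM matched GENCODE M21 (GRCm38) within 0.5% for 97.9% of 34180 genes. Counts were tested with edgeR 4.0.16 in R 4.3.3 (robust quasi-likelihood, TMM factors, filterByExpr, 1 mean per group, all 16 libraries, Benjamini-Hochberg over 18214 genes, threshold 0.05), and the fit was tested on simulated data. CPM use TMM-scaled totals. Log2 CPM has a prior count of 2. Fits on FPKM used log2(FPKM + 1) or log2(FPKM + 0.1) in limma 3.58.1, which understates changes of low genes. The floor is 3 counts. Intervals of pooled counts are exact binomial.

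Named besides the 6 genes are their neighbours (nearest tested protein-coding gene on each side), relatives from family lists, marker genes, and the 3 most similar genes by each of 2 measures (mean of at least 1 CPM), of which the first are printed. The 6 genes, the lists and the rules were chosen with earlier results of these data known. Replicate numbers follow sample order. No library was a copy of another (smallest chi-square over its degrees of freedom 29.5, 24 pairs within groups). Alternatives were RLE or upper-quartile factors, DESeq2 1.42.0, a minimum of 10 counts in every library or no filter, a fit of the compared groups alone, limma on FPKM, title number range as covariate, and leaving libraries out. Added after seeing the data were a fit with only the males of the lower range of title numbers, and the relatives and neighbours with libraries left out. Python 3.11.15, numpy 2.4.6, pandas 2.3.3, scipy 1.17.1 and matplotlib 3.10.9 made the tables and plots. Sts, of the sulfatase list, was not analysed here.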

Additional observations from a re-analysis of the deposited data

Results flagged for a closer look

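Single libraries lay apart from the other 3 of their group for 3 values, in 24 groups of 4 examined, where chance flags about 1 in 20. Susd3 was at 4.77 CPM in female control 1, against 1.55 to 1.60 in the other female controls, a gap of 0.984 of the range. It was at 1.04 CPM in female GOF 3, a gap of 0.882 of the range. Eppin was at 0 CPM in female control 1, a gap of 0.910 of the range, but the other female controls had 1 count each. The fitted genotype effects in males and females were 2.35 apart for Susd3 and 5.65 apart for Drd4, male minus female on the log2 scale. These are descriptions without a test, since the genes were chosen by their male and female levels. For Susd3 the value was 1.74 without female control 1, and Drd4 passed the filter only through the male libraries, with 9 counts in female GOF.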

How the results depend on the processing

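Drd4 upward and Sult1e1 downward in males and Susd3 downward in females were called in all 27 alternatives each that kept the gene. Calls among the 6 genes in females numbered 1 of 6 (from 2) with no filter, with at least 10 counts in every library, and in the 3 limma fits on FPKM, and 1 to 2 when 1 library was left out. With at least 10 counts in every library, which removes Drd4 and Sult1e1, there were 0 in males. The 2 filtered limma fits on FPKM called 3 of 6 in males and 3 for the interaction (from 2 each). Calls of the interaction numbered 1 with no filter, with that count minimum, with the title range as covariate and without female control 1 and male control 2, and 1 to 2 with 1 library left out. Over all genes the interaction had 766 calls, 1434 with DESeq2, 408 with no filter, 470 with limma on unfiltered FPKM, 440 with the title range, 448 without those 2 libraries, and 377 to 953 with 1 left out. With only the males of the lower title range, 1683 genes were called in males, from 6724, with fewer samples. Signs turned for Cited1 in males, to 0.54 without male control 4, 0.15 without male GOF 2 and 0.64 with those males (from -0.21), and for Sult1e1 in females, to 0.16 without female control 3 (from -0.27); the cause was not tested. With 1 library left out Cited1 ran from -0.83 to 0.54 and Sult1e1 in females from -0.85 to 0.16. The 3 limma fits on FPKM put the median gene at 0.09 to 0.12 in males, where 58.6% to 61.3% of calls were higher in GOF, from 41.1% (51.2% with upper-quartile factors); in females 56.7% to 60.7%, from 48.0%. No paired analysis was possible because the labels give no replicate numbers. Depth limits Eppin and Sult1e1 in females, at 0 to 4 counts per library, and Drd4 in female GOF, at 2 to 3.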
